A study of Mus musculus with 12 samples.

Results

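The NF-kB subunits are a family of 5 transcription factor genes in the mouse: Nfkb1, Nfkb2, Rel, Rela and Relb. They were followed in 12 expression arrays of peritoneal macrophages, and each was read from every probeset that the array's annotation pairs with it. Where a gene had more than 1 probeset, the main one was that with the highest mean over the 11 arrays other than the unstimulated double knockout. Of the 5 genes, 4 had a probeset (Nfkb2, Rel, Rela and Relb), out of 18194 genes read from the table. Nfkb1 is not analysed here. The 4 genes have 5 probesets, since Nfkb2 has a second one.

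The macrophages were elicited with thioglycollate, an irritant injected into the peritoneum, and came from wild-type mice, from IRAK-2-/- mice (called the IRAK2 knockout here), and from mice lacking both IRAK-1 and IRAK-2 (the double knockout). All cells of the stimulated groups received MALP-2, a bacterial lipopeptide sensed by the receptors TLR2 and TLR6, at 100 ng/ml for 2, 4 or 8 h, and the 0 h cells were unstimulated. Each genotype and time is 1 array, so no group has a replicate. The strain, the age of the mice, how many mice gave cells to an array and how the alleles were made are not stated in the labels. The comparisons ask how the transcripts of the NF-kB subunits respond to MALP-2 and how that response stands without IRAK2 and without both kinases, which relay the signal from the receptor's adaptor MyD88.

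NF-kB acts as a dimer of Rel-domain proteins. Rela (p65), Relb and Rel (c-Rel) carry domains that activate transcription, while Nfkb1 and Nfkb2 encode longer precursors that are processed to the DNA-binding subunits p50 and p52. In resting cells most dimers are held in the cytoplasm by I-kappa-B proteins, and the IKK kinases release them by marking those inhibitors for destruction. Several subunit and inhibitor genes are themselves NF-kB targets, so the transcripts measured here are part of a feedback network, and they do not report how much protein is processed or nuclear.

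RefSeq start windows on GRCm38.p6, from 250 bases before a transcript's start to 50 after it, were at hand for Nfkb2, Rel and Rela. They are shown because they were the windows available, and Nfkb1 and Relb had none. Capitals mark letters that match the kappa-B consensus on either strand. Nfkb2 has 3 windows, of which the first and the second are printed, and the third overlaps the second. All sequences run 5′ to 3′ on the gene's strand.
Nfkb2, first start, chr19:46304487-46304786, plus strand: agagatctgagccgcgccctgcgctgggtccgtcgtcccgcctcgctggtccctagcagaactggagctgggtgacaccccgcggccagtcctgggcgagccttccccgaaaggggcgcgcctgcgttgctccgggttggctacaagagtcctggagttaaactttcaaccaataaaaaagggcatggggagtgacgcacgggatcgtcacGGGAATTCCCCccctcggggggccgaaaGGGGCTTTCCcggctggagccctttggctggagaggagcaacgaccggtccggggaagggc
Nfkb2, second start, chr19:46305445-46305744, plus strand: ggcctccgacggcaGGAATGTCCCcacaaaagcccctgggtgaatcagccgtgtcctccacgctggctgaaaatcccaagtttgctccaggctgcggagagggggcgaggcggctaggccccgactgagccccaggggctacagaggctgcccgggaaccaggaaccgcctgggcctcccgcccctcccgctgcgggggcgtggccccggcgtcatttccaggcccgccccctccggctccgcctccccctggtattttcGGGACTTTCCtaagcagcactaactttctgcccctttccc
Rel, chr11:23770920-23771219, minus strand: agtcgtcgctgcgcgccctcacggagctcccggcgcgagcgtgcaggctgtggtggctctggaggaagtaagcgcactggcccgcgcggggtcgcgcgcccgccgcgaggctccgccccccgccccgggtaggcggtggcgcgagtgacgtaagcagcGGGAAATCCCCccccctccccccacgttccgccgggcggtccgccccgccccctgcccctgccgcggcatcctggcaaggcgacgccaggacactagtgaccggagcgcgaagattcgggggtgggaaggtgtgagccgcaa
Rela, chr19:5637291-5637590, plus strand: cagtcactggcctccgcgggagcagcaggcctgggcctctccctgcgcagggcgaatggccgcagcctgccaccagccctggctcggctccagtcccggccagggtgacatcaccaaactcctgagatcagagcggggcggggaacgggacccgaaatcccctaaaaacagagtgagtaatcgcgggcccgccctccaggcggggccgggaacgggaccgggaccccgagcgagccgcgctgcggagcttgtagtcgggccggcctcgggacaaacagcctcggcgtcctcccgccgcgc

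The first Nfkb2 window held 3 matches. GGGAATTCCC, which reads the same on both strands, began 39 bases before the start, GGAATTCCCC overlapped it from 38 bases before the start, and GGGGCTTTCC began 11 bases before the start. In the second Nfkb2 window GGAATGTCCC began 236 bases before the start and GGGACTTTCC began 10 bases after it. The third Nfkb2 window held 1 match, the same GGGACTTTCC. In Rel, GGGAAATCCC began 92 bases before the start and GGAAATCCCC overlapped it by starting 1 base later. The Rela window held 0 matches. Over all 32851 windows of 300 bases in the table, 8.46% held 1 or more matches, 1.22% held 2 or more and 0.186% held 3 or more. A match is a stretch of letters and says nothing about binding, and the absence of a match covers this window only. The map of the windows shows where the matches lie.

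**Figure D1:**
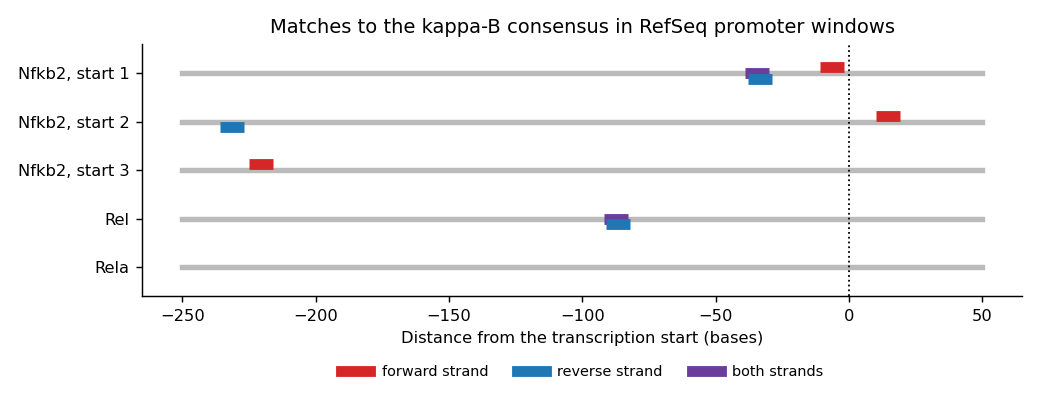
Position of kappa-B consensus matches in the start windows of Nfkb2, Rel and Rela, in bases from the transcript start (position 0), each window running from 250 bases before to 50 after it. The first Nfkb2 window holds 3 matches, the second 2, the third 1, Rel 2 that overlap, and Rela 0.

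The deposited values are log2 signals. The median of all values over the 11 arrays, 3.83, served as a floor, under which a level cannot be told from background. The double-knockout 0 h array stood apart. Its correlation with the other arrays was 0.764 to 0.804 over all probesets, against at least 0.954 among the other 11. That array therefore enters only the alternative fits with all 12 arrays and no other test below. Double-knockout responses are given against it and against the mean of the other 0 h arrays, called the substitute baseline. The actin 5' minus 3' value falls when RNA or its copies are cut short. It was -4.25, -4.68 and -3.87 on the double-knockout arrays at 2, 4 and 8 h. On the 8 wild-type and IRAK2-knockout arrays it was between -3.72 and -3.18. The same value for Gapdh was -5.29, -5.90 and -4.36 on the former and between -3.84 and -3.42 on the latter. On the double-knockout 0 h array the actin value was -2.54 and the Gapdh value -2.45. On the stimulated arrays Irak2 read 5.77 to 6.69 in wild type, 4.65 to 5.51 in the IRAK2 knockout and 4.61 to 5.19 in the double knockout. The main Irak1 probeset read 8.46 to 8.59 in wild type and 8.31 to 8.52 in the IRAK2 knockout, 0 h included. In the stimulated double knockout it read 8.11 to 8.31. On the double-knockout 0 h array it read 10.84, the highest of the 12 arrays, which is opposite to a loss of Irak1 transcript, and Irak2 read 3.53 there. With no position given for these probes relative to the deleted parts, these levels do not check the labels. All 8 macrophage markers listed reached the floor on at least 1 of the 11 arrays. Csf1r, at 12.82 or above, and Lyz2, at 12.80 or above on all 11 arrays, read highest. Itgam ranged from 3.82, just under the floor, to 5.28. Of the 8, 4 were called lower and 1 higher in the double knockout than in wild type, by the fit described below. In bulk arrays such as these, fewer cells of a type and less RNA per cell cannot be told apart.

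All 4 measured subunits rose with MALP-2 in wild-type and IRAK2-knockout macrophages. Nfkb2 rose most and stayed near its 2 h level in wild type but not in the IRAK2 knockout, Rel rose steeply and then fell, and Rela and Relb peaked at 2 h and declined in part. The levels on the 12 arrays are shown in the plot of levels by time, and they follow here gene by gene.

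**Figure D2:**
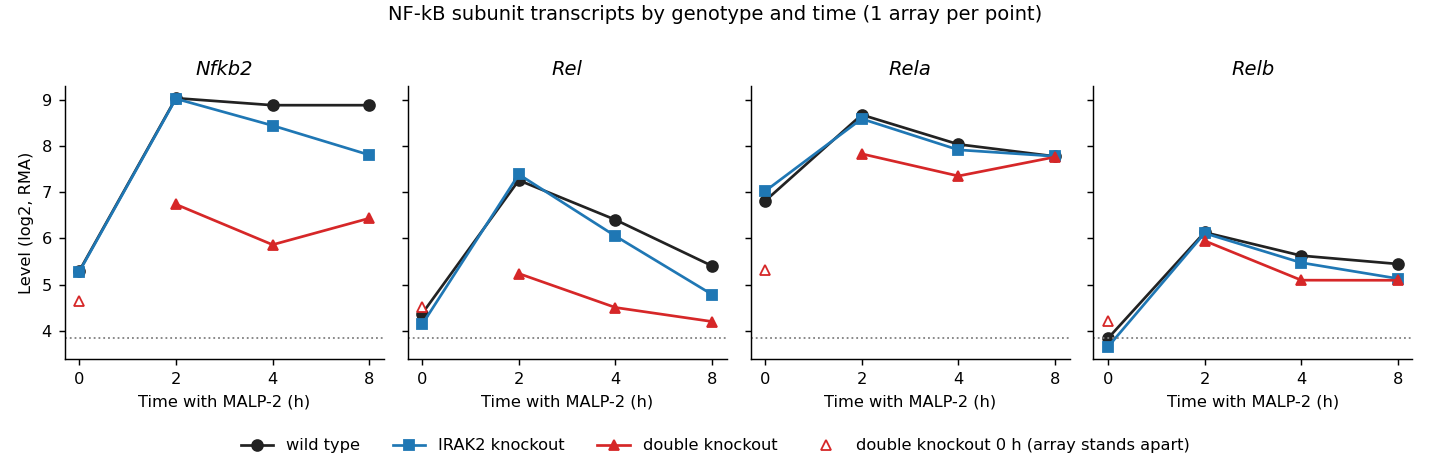
Log2 level of Nfkb2, Rel, Rela and Relb (vertical axis) at 0, 2, 4 and 8 h of MALP-2 (horizontal axis, evenly spaced) in wild type, IRAK2 knockout and double knockout, 1 point per array; levels of different genes are not comparable. Nfkb2 and Rel of the stimulated double knockout lie below both other genotypes at each time, and Rela meets them at 8 h.

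Nfkb2, whose product p100 is the precursor of p52 and also holds back RelB dimers, read 5.29, 9.04, 8.89 and 8.89 in wild type at 0, 2, 4 and 8 h. In the IRAK2 knockout it read 5.28, 9.03, 8.45 and 7.81. In the double knockout it read 4.64, 6.74, 5.86 and 6.44. The wild-type arrays reached a plateau from 2 h on, the IRAK2-knockout arrays reached the same level at 2 h and were lower at each later time, and the 3 stimulated double-knockout arrays were below all 6 other stimulated arrays. In wild type the level stood 13.4-fold above 0 h at 2 h and 12.1-fold above it at 4 and at 8 h. In the IRAK2 knockout the sizes were 13.5-fold at 2 h and 5.79-fold at 8 h, or 3.75 and 2.53 log2, with 3.17 log2 at 4 h.

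Rel, which encodes c-Rel, an activating subunit abundant in blood cells, read 4.37, 7.26, 6.40 and 5.40 in wild type. The IRAK2 knockout read 4.14, 7.39, 6.05 and 4.78, and the double knockout read 4.52, 5.24, 4.50 and 4.20. Both wild type and the IRAK2 knockout were highest at 2 h and stepped down at each later time. The double-knockout array at 8 h lay within the range of the 0 h arrays. At 4 h, 4.50 lay within it only if the double-knockout 0 h array, at 4.52, is counted. These levels were not far above the floor of 3.83. In wild type Rel stood 7.41-fold, 4.10-fold and 2.05-fold above 0 h, and in the IRAK2 knockout 9.52-fold, 3.77-fold and 1.57-fold.

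Rela, which encodes the activating subunit p65 of the most common dimer, read 6.81, 8.68, 8.04 and 7.78 in wild type. The IRAK2 knockout read 7.02, 8.59, 7.92 and 7.78. The double knockout read 5.31, 7.83, 7.35 and 7.76. Rela thus had a clear signal before stimulation, and by 8 h the 3 genotypes read almost alike. The wild-type sizes against 0 h were 3.65-fold, 2.34-fold and 1.96-fold.

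Relb, which encodes the activating subunit that pairs chiefly with p52 in the non-canonical arm, read 3.83, 6.13, 5.63 and 5.45 in wild type. The IRAK2 knockout read 3.65, 6.11, 5.47 and 5.13. The double knockout read 4.22, 5.95, 5.10 and 5.09. The 0 h levels of wild type and of the IRAK2 knockout were at or under the floor, so the wild-type sizes of 4.92-fold, 3.46-fold and 3.06-fold are lower limits. All 9 stimulated arrays lay above all 3 unstimulated ones.

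Counted by size, 4, 4 and 3 of the 4 subunits were at least 2-fold above 0 h in wild type at 2, 4 and 8 h, where 5.41%, 5.34% and 5.06% of all genes measured were. In the IRAK2 knockout the counts were 4, 3 and 2 of 4, against 4.65%, 4.26% and 3.21% of genes. In the double knockout, against its own 0 h array, they were 3, 2 and 2 of 4, but 31%, 32.5% and 34.8% of all genes passed that size there. Against the substitute baseline they were 2, 1 and 2 of 4, against 4.22%, 4.57% and 3.42% of genes. Rela shows how far the baseline matters: its double-knockout level at 2 h was 2.52 log2 above its own 0 h array and 0.92 above the substitute. Rel in the double knockout read 0.71 above its own 0 h array at 2 h, and -0.02 and -0.33 against it at 4 and 8 h. Against the substitute baseline, 4.25 for Rel, it was 0.99 and 0.25 higher at 2 and 4 h, and its 8 h level was 4.20.

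The response shared by wild type and the IRAK2 knockout was tested with limma over their 8 arrays, with genotype and time as additive factors. The 2 genotypes stand in for replicates of a time, so its p-values set a change against its constancy over genotypes and not against the spread between mice. All 4 subunits were called higher at 2 h (16.2% of genes were), at 4 h (17.3%) and at 8 h (14.7%), a call being a Benjamini-Hochberg adjusted p under 0.05 over all 10801 genes tested. At 2 h Nfkb2 rose by 3.75 log2 (SE 0.24, limma adjusted p 2.15e-05), Rel by 3.07 (SE 0.17, adjusted p 1.2e-05), Relb by 2.38 (SE 0.11, adjusted p 5.89e-06) and Rela by 1.72 (SE 0.12, adjusted p 2.83e-05). The median of the 4 was 2.73, and the median of all genes was -0.12. At 8 h the rises were 3.06 for Nfkb2, 1.55 for Relb, 0.86 for Rela and 0.84 for Rel, with adjusted p from 5.37e-05 to 0.00653. The smallest of these, Rel at 8 h, was 0.61 (adjusted p 0.0502) without the wild-type 8 h array. Over all genes, 3142 were called lower and 1755 higher at 2 h, and centring each array on its median turned this into 2247 lower and 2416 higher, with the 4 subunits called higher under both.

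From 2 to 8 h 3 of the 4 subunits fell in this fit, where 11.4% of genes were called lower. The change was -2.23 log2 for Rel (limma adjusted p 0.000144), -0.86 for Rela (adjusted p 0.00154) and -0.83 for Relb (adjusted p 0.00134). For Nfkb2 it was -0.69 (SE 0.24, adjusted p 0.0627), which did not pass. That value joins unlike courses: Nfkb2 kept 90.0% of its 2 h signal at 8 h in wild type, but 43.0% without IRAK2. Centring made it -0.82 (adjusted p 0.0279), and it was called without the wild-type 8 h array (-1.15, adjusted p 0.00492), the wild-type 0 h array (-0.69, adjusted p 0.0453) or the IRAK2-knockout 0 h array (-0.69, adjusted p 0.0446). Over all genes, 1235 were called lower and 2233 higher from 2 to 8 h, and after centring 1930 lower and 1506 higher.

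In the IRAK2 knockout the subunit transcripts read near their wild-type level at 2 h, and the largest of the gaps was that of Nfkb2 at 8 h. The difference of IRAK2 knockout minus wild type for Nfkb2 was -0.02, -0.01, -0.44 and -1.08 log2 at 0, 2, 4 and 8 h, the last being 47.4% of the wild-type signal. For Rel it was -0.23, 0.13, -0.35 and -0.62, for Relb -0.18, -0.02, -0.15 and -0.32, and for Rela 0.21, -0.09, -0.12 and 0.0033. At 8 h 1 of the 4 subunits, Nfkb2, was at least 2-fold lower, as were 1.21% of genes measured, and at 0, 2 and 4 h 0 of 4 were (0.317%, 0.286% and 0.528% of genes). These values at 1 time each have no replicate check.

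The difference over the 3 stimulated times was tested with limma on the 9 stimulated arrays, again with genotype and time as additive factors, over 10854 genes. Its p-value weighs a difference against its constancy over 2, 4 and 8 h, not against the spread between mice. For IRAK2 knockout minus wild type 0 of 4 subunits were called, 0 had an unadjusted p under 0.05, and 0.765% of genes were called, with 0.35% of genes called lower. The differences were -0.51 log2 for Nfkb2 (95% interval -1.03 to 0.0097, adjusted p 0.377), -0.28 for Rel (-0.83 to 0.27, adjusted p 0.654), -0.16 for Relb (-0.43 to 0.11, adjusted p 0.588) and -0.07 for Rela (-0.45 to 0.31, adjusted p 0.894). The intervals leave room for a loss of Nfkb2 to about the 8 h size and hold 0 for all 4 genes. The difference for Nfkb2 was -0.19 (adjusted p 0.86) without the IRAK2-knockout 8 h array, and leaving out arrays or times moved it between -0.76 and -0.19. For Relb the range was -0.24 to -0.085, the smaller size again without the IRAK2-knockout 8 h array. The sign for Rel turned without the IRAK2-knockout 8 h array (0.013), and that for Rela without that array (0.021) or the wild-type 2 h array (0.019).

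On the stimulated double-knockout arrays Nfkb2 and Rel were lower than in wild type by a wide margin, and Rela and Relb by a narrow one that did not hold in most omissions of 1 array. For double knockout minus wild type 4 of 4 were called lower, where 17.3% of genes were called lower and 23.7% higher. Nfkb2 was lower by -2.59 log2 (SE 0.23, 95% interval -3.11 to -2.07, adjusted p 0.000109), which is 16.6% of the wild-type signal. Rel was lower by -1.71 (SE 0.24, -2.26 to -1.16, adjusted p 0.000936), or 30.6%. Rela was lower by -0.52 (SE 0.17, -0.89 to -0.14, adjusted p 0.0354), or 70.0%, and Relb by -0.36 (SE 0.12, -0.63 to -0.084, adjusted p 0.0409), or 78.2%. The median over the 4 was -1.11 and that over all genes 0.07. Over all genes 1883 were called lower and 2575 higher, and after centring 2390 lower and 2038 higher. The plot of differences by time sets these values beside each other.

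**Figure D3:**
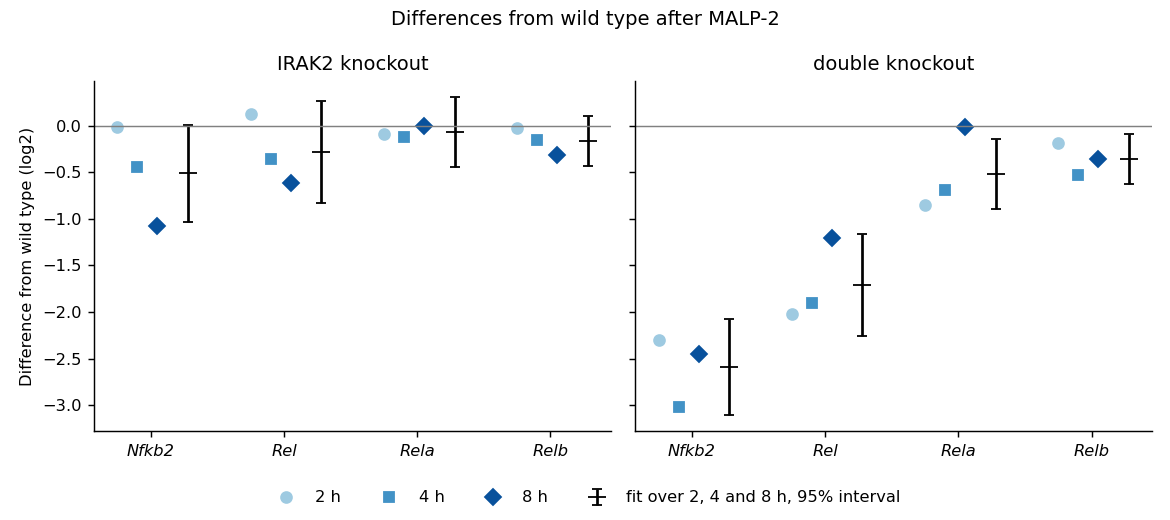
Difference in log2 level from wild type at 2, 4 and 8 h for each subunit (points, 1 array minus 1 array) with the limma estimate over the 3 times and its 95% interval, for the IRAK2 knockout and the double knockout. The double-knockout points of Nfkb2 lie between -3.02 and -2.30 and those of Rel between -2.02 and -1.20, and the Rela point at 8 h is -0.01.

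At the single times, Nfkb2 of the double knockout was 20.3%, 12.3% and 18.3% of wild type at 2, 4 and 8 h, and Rel was 24.6%, 26.8% and 43.4%. For both genes every stimulated double-knockout array was at least 2-fold below the wild-type array of its time. Rela was 55.6%, 62.1% and 99.1% of wild type, so its whole difference came from 2 and 4 h. Relb differed by -0.18, -0.53 and -0.35 log2. Thus 2 of 4 subunits were at least 2-fold lower at each time, as were 4.5%, 6.14% and 4.89% of genes.

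Set against the IRAK2 knockout, from which it differs by the loss of IRAK1, 2 of 4 subunits were called lower (16.7% of genes were). Nfkb2 differed by -2.08 log2 (95% interval -2.60 to -1.56, limma adjusted p 0.000351) and Rel by -1.43 (-1.98 to -0.88, adjusted p 0.00233). Rela differed by -0.45 (-0.83 to -0.068, adjusted p 0.0623) and Relb by -0.19 (-0.46 to 0.078, adjusted p 0.232), and neither passed. The comparisons share arrays, so they are not separate evidence. The Rel call was lost with the actin covariate (-0.91, adjusted p 0.123) and with all 12 arrays (-0.97, adjusted p 0.166). Rela was called without the double-knockout 8 h array (-0.68, adjusted p 0.00287), and centring also called it (-0.52, adjusted p 0.0365).

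The calls for Nfkb2 and Rel in the double knockout against wild type held when any 1 stimulated array or any 1 time was left out, at -2.80 to -2.36 for Nfkb2 and -2.05 to -1.45 for Rel. Those for Rela and Relb did not. Rela was not called without the 2 h or the 4 h array of wild type (-0.43 and -0.46), of the IRAK2 knockout (-0.52 and -0.52) or of the double knockout (-0.35 and -0.44). Relb was not called without the 4 h or 8 h array of wild type (-0.31 and -0.32), the 2 h or 4 h array of the IRAK2 knockout (-0.36 and -0.36) or of the double knockout (-0.41 and -0.27). With the actin 5' minus 3' value of each array as a covariate, Nfkb2 differed by -1.97 (adjusted p 0.019), Rel by -1.11 (adjusted p 0.115), Relb by -0.18 (adjusted p 0.618) and Rela by -0.05 (adjusted p 0.914). With all 12 arrays in the fit Nfkb2 differed by -2.11 (limma adjusted p 0.0145) and Rel by -1.24 (adjusted p 0.0824). The actin value and the genotype largely coincide here, so their parts in the result cannot be told apart. The plot of alternatives gathers these values.

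**Figure D4:**
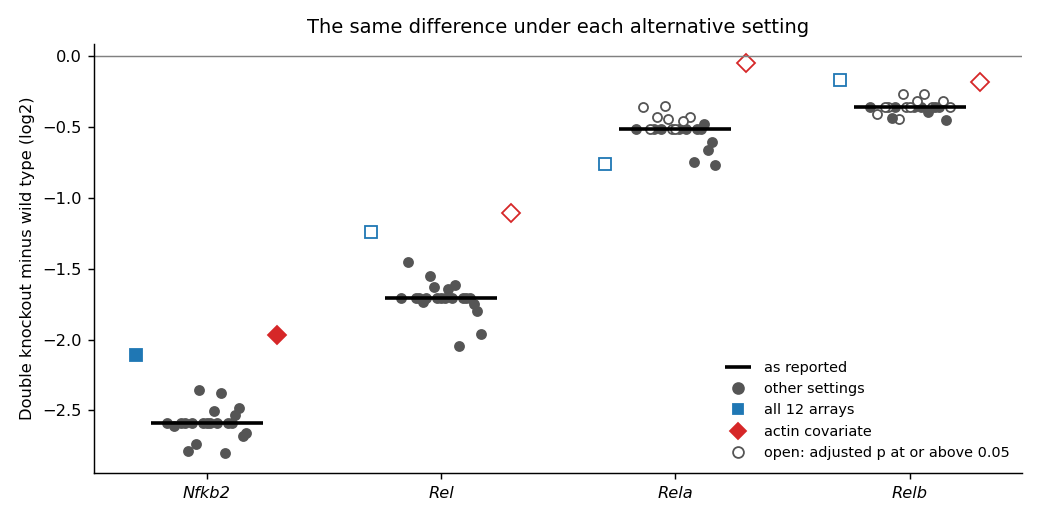
Difference of double knockout minus wild type over 2, 4 and 8 h (log2, vertical axis) for each subunit as reported and under the alternatives run, with alternatives that were called and not called marked apart. For Nfkb2 the values span -2.80 to -1.97 and all are called, for Rel -2.05 to -1.11 with 2 not called, and for Rela -0.77 to -0.05.

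Some marker lists of other cells moved with the double knockout and others overlapped between genotypes, and their part in the subunit differences was not tested. The summed signal of the neutrophil list, 5 of whose 6 genes have a probeset, was 1686 to 2195 on the stimulated wild-type arrays, 1496 to 1909 in the IRAK2 knockout and 607 to 732 in the double knockout. Most of it was S100a8, and the granule protein gene Ngp was under the floor on all 11 arrays. S100a9 (3.48 to 4.15) and Ltf (3.47 to 3.89) lay near the floor on these arrays, and Camp read 3.87 to 5.98. In the double knockout 2 of 3 tested members were called lower. Of all genes 17.3% were called lower and 23.7% higher. The eosinophil and mast cell list read 112 to 165, 111 to 180 and 238 to 301, with its 2 tested members called higher. Ccr3, Epx, Prg2 and Mcpt4 of that list were under the floor on all 11 arrays. The macrophage list read 23849 to 24884, 24221 to 25825 and 22275 to 22652, with 4 of 8 members called lower and 1 higher in the double knockout. The B cell list read 62.8 to 82.0, 52.3 to 63.1 and 47.3 to 52.8, with Pax5 under the floor. Of its 2 tested members 1 was called lower. The T and NK cell list read 54.2 to 59.7, 52.3 to 60.9 and 54.0 to 69.7, with Cd3d, Cd3g and Ncr1 under the floor. Its 1 tested member was not called. The dendritic cell list read 68.6 to 139, 73.4 to 105 and 99.4 to 174, with its 1 tested member called higher and Flt3, Cd209a and Xcr1 under the floor. The mesothelial and stromal list read 1537 to 1702, 1620 to 1874 and 1671 to 1952, with 1 of 3 tested members called lower and Msln and Krt19 under the floor.

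Whether the gaps widened or narrowed between 2 and 8 h was tested in limma as a slope of the gap on log2 time, over 10854 genes and leaving 2 residual degrees of freedom. Between 2 and 8 h the gap of IRAK2 knockout minus wild type changed by -1.06 log2 for Nfkb2 and by -0.75 for Rel, against 0.09 for Rela and -0.30 for Relb. The slopes per doubling of time were -0.53 for Nfkb2 (SE 0.22, limma unadjusted p 0.0452, adjusted p 0.989) and -0.37 for Rel (SE 0.14, unadjusted p 0.0312, adjusted p 0.961). In limma 0 of 4 subunits were called and 2 had an unadjusted p under 0.05, where 0.00921% of genes were called and 4.95% had such a p. The gap of the double knockout to wild type narrowed in size by 0.82 for Rel and 0.83 for Rela from 2 to 8 h, with slopes of 0.41 and 0.42 (limma adjusted p 0.263 and 0.248). Here too 0 of 4 were called and 2 had an unadjusted p under 0.05, against 0.138% and 15% of genes. Rel in the double knockout read 5.24 at 2 h. At 4 and 8 h it read 4.50 and 4.20, near the 0 h levels of 4.14 to 4.52. Wild-type Rel fell from 7.26 to 5.40 between 2 and 8 h. Against the IRAK2 knockout the slope for Rel was 0.78 per doubling (limma adjusted p 0.173), again with 0 of 4 called and 2 with an unadjusted p under 0.05 (0.00921% and 13% of genes).

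Between 2 and 8 h Rel fell in every genotype. Its 8 h level was 27.6% of the 2 h level for wild type, 16.5% without IRAK2 and 48.6% without both kinases. The double-knockout 8 h level of Rel, 4.20, lay within the range of the 0 h arrays. Relb stood at 62.2%, 50.6% and 55.3%. Rela stood at 53.5%, 57.0% and 95.4%. Nfkb2 stood at 90.0%, 43.0% and 81.1%, and in the double knockout its 4 h level was the lowest of the stimulated arrays.

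Over the 11 arrays other than the double-knockout 0 h array, Nfkb2 was highest in wild type at 2 h, the IRAK2 knockout at 2 h, and wild type at 4 and 8 h, and these 4 neighbours lay within the residual SD of the genotype fit (0.28) of each other. The IRAK2 knockout at 4 and then at 8 h followed, then the double knockout at 2, 8 and 4 h, each separated by more than that SD, and the 0 h arrays of wild type and the IRAK2 knockout came last, within it. Rel was highest at 2 h in the IRAK2 knockout and wild type, which did not differ beyond the SD of 0.30, followed by wild type and the IRAK2 knockout at 4 h. Wild type at 8 h and the double knockout at 2 h stood next to each other within the SD, and the 5 lowest arrays, from the IRAK2 knockout at 8 h down to its 0 h array, were each within it of the next. Rela had 6 neighbours, from wild type at 4 h to the double knockout at 8 h, each within the SD of 0.20 of the next. Relb was ordered 2 h before all other arrays in every genotype, and the IRAK2 knockout at 8 h and the double knockout at 4 and 8 h lay within the SD of 0.15 of each other, as did the IRAK2 knockout at 4 h and wild type at 8 h. The span from the lowest to the highest of the 11 arrays was 3.76 log2 for Nfkb2, 3.25 for Rel, 2.48 for Relb and 1.87 for Rela.

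The second Nfkb2 probeset lay near the floor and had a smaller range. Wild type read 4.81, 5.37, 5.61 and 5.53. The IRAK2 knockout read 4.56, 5.12, 5.42 and 4.79, and the double knockout read 4.63, 3.64, 4.07 and 5.06. The low readings were the double knockout at 2 h, under the floor, and at 4 h, just above it, so the sizes that rest on them are not measured folds. Fitted with all probesets, it was lower in the double knockout than in wild type by -1.25 log2 (limma adjusted p 0.00889) and than in the IRAK2 knockout by -0.85 (adjusted p 0.0477), and not called for IRAK2 knockout minus wild type (-0.40, adjusted p 0.592). Its shared response was 0.56, 0.83 and 0.48 at 2, 4 and 8 h (adjusted p 0.0176, 0.00301 and 0.0448), against 3.75, 3.38 and 3.06 for the main probeset.

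The genes with the most similar profile were taken by Pearson correlation of levels over the 11 arrays, among 5120 other genes with a range of at least 1 log2. The 11 arrays share genotypes and times, so this is a description of their courses. For Nfkb2 they were Gas7 (r 0.986), Il1a, which encodes interleukin 1 alpha (0.985), and Metap1, an aminopeptidase gene (0.984). Il1a read 5.68, 9.77, 9.77 and 9.67 in wild type and 5.30, 9.45, 9.03 and 8.25 without IRAK2, a plateau and a late step down like those of Nfkb2. In the double knockout Il1a read 6.50, 6.13 and 5.95 at 2, 4 and 8 h, falling at each time, while Nfkb2 read 6.74, 5.86 and 6.44. For Rel they were the protease gene Adamts4 (0.988), Zfp263 (0.978) and Kdm6b, which encodes a histone demethylase (0.977). Adamts4 read 3.98, 6.83, 6.29 and 5.36 in wild type and 4.83, 4.51 and 4.08 in the stimulated double knockout. For Rela they were Reps1 (0.958), the casein kinase gene Csnk2a2 (0.958) and Ciapin1 (0.956), and for Relb Abtb2 (0.984), Tnip1, a partner of the inhibitor A20 (0.976), and the I-kappa-B gene Nfkbie (0.971). Abtb2 read 5.88, 9.79, 8.52 and 8.47 in wild type and 9.77, 8.32 and 8.14 in the stimulated double knockout, and its difference between these genotypes was not called (-0.18, limma adjusted p 0.223), while that of Relb was (-0.36, adjusted p 0.0409).

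The proteins that hold, release and assist the subunits were followed in 3 lists. Of 6 I-kappa-B genes, 3 were called lower in the double knockout than in wild type and 0 higher (17.3% and 23.7% of all genes), with a median of -0.55 against 0.07 over all genes. Nfkbiz, a nuclear member that helps activate secondary genes, read 7.38, 11.85, 11.39 and 11.08 in wild type, then 7.22, 11.69, 10.19 and 9.73 without IRAK2, and 9.99, 8.93 and 7.84 in the double knockout at 2, 4 and 8 h, lower by -2.52 (limma adjusted p 0.000186). All 3 stimulated double-knockout arrays lay below the wild-type array of their time by more than 1 log2. Nfkbib, an inhibitor in the cytoplasm, was lower by -1.46 (adjusted p 0.000199) and Nfkbid, a nuclear member, by -0.69 (adjusted p 0.00257). Nfkbia (-0.40, adjusted p 0.0516), Nfkbie (-0.33, adjusted p 0.209) and Bcl3 (0.03, adjusted p 0.92) did not pass. In the shared response 6, 6 and 5 of the 6 were called higher at 2, 4 and 8 h (16.2%, 17.3% and 14.7% of all genes), and 5 fell from 2 to 8 h (11.4% of genes). The plot of the lists shows every tested member.

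**Figure D5:**
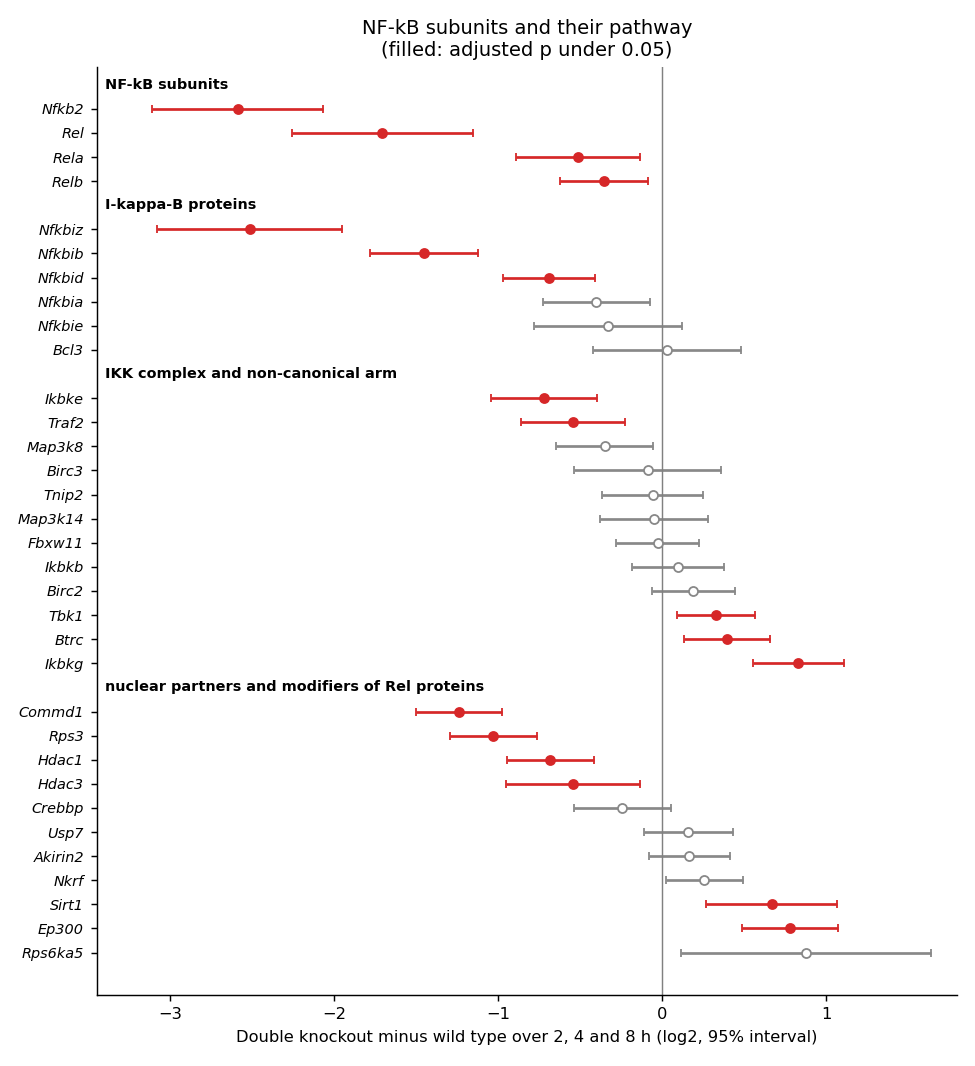
Difference of double knockout minus wild type over 2, 4 and 8 h (log2) for the tested members of the subunit, I-kappa-B, IKK and nuclear partner lists, with called genes marked. Nfkb2 and Nfkbiz lie lowest, and the IKK list is spread on both sides of 0.

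Of 12 tested genes of the IKK complex and its non-canonical arm, 2 were called lower and 3 higher in the double knockout, shares near the 17.3% and 23.7% of all genes. The median was -0.04, and after centring 1 was called higher. Ikbkg, the regulatory subunit NEMO, was higher by 0.83 (limma adjusted p 0.0011), at 9.18, 9.60 and 9.95 against 8.12, 8.75 and 9.38 in wild type. Ikbke, an inducible IKK-related kinase, was lower by -0.72 (adjusted p 0.00433), and Btrc, which recruits the ubiquitin ligase to I-kappa-B, was higher by 0.40 (adjusted p 0.0233). Traf2, an adaptor of TNF receptors, was also called lower (-0.55, adjusted p 0.0138), but its double-knockout levels of 3.39 and 3.56 at 2 and 4 h were under the floor and its wild-type levels of 4.21, 4.07 and 4.14 close to it, so the size is not a measured fold. Chuk and Traf3 are not analysed here. In the shared response 7, 5 and 6 of 12 were called higher at 2, 4 and 8 h (16.2%, 17.3% and 14.7% of all genes), 1 was called lower at 2 h and 0 at 4 and 8 h, and from 2 to 8 h 2 were called lower and 3 higher.

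Of 11 tested nuclear partners and modifiers of Rel proteins, 4 were called lower and 2 higher in the double knockout (17.3% and 23.7% of all genes), with a median of 0.16. Commd1, a factor that promotes removal of RelA, was lower by -1.24 (limma adjusted p 0.000147), the ribosomal protein gene Rps3 by -1.03 (adjusted p 0.000345) and the deacetylase gene Hdac1 by -0.68 (adjusted p 0.00212). Ep300, an acetyltransferase, was higher by 0.78 (adjusted p 0.00181). For IRAK2 knockout minus wild type 0 of 6, 0 of 12 and 0 of 11 members of the lists were called by limma, with medians of -0.19, -0.14 and -0.02.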

How the data were processed

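The deposited series table holds 1 log2 value per probeset and array for 45101 probesets, made by the authors with RMA per the submitters' processing notes (background correction, equal array distributions, probe summary; version not given in the sources used here). RNA was extracted with Trizol and labelled with the NuGEN Ovation system, per the labels' protocols. The probe annotation gave 34958 probesets with 1 gene symbol, 932 with several and 9211 with none. For 34754 of those with 1 symbol, the current symbol was looked up through the gene identifier, whether or not it had changed.

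Tests used limma 3.58.1 in R 4.3.3 over genes whose mean reached the floor of 3.83. The genotype fit had 4 residual degrees of freedom (prior 4.73), the slope fit 2 and the shared-response fit 3. On simulated data with 100 genes shifted by 1 log2 and 100 by 2, the genotype fit called 94 and 100 with 10 false calls among 10854 genes. The slope fit called 88 and 100 with 12 false calls, and the shared fit 95 and 100 with 12 among 10801. The simulated noise was independent between arrays, with no effect shared by the arrays of a genotype. These counts therefore cannot gauge calls that arise from such an effect. Alternatives were array centring, other floors and probesets, other sets of arrays, a trended robust prior, the actin covariate and leaving out arrays. Start windows are RefSeq's on GRCm38.p6.

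Besides the subunits, the genes named are the 4 called genes of each list with the largest difference of double knockout minus wild type, and the 3 genes nearest each subunit by correlation. The other I-kappa-B members, the marker genes and the kinases were named beside them. The members, lists and tests were chosen with earlier results of these data known. With 1 array per group, the number of arrays limits the precision.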

Additional observations from a re-analysis of the deposited data

How the results depend on the processing

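No paired analysis was possible because each group is a single array and the labels carry no replicate numbers. The tests weigh constancy over times or genotypes, Relb lies near the floor at 0 h, and the cause of each change below was not tested. The 4 subunits had 92 alternatives per contrast. For double knockout minus wild type 65 kept the call and direction and 27 lost the call. Against the IRAK2 knockout 85 kept their status, called or not, and their direction, 2 lost a call and 5 gained one. For IRAK2 knockout minus wild type, where no subunit was called, 87 stayed not called with the same sign and 5 turned sign. Of 192 for the shared response 187 kept their status and direction, 1 lost a call and 4 gained one. All 48 for the slopes stayed not called with the same sign.

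With all 12 arrays, double knockout minus wild type was -1.24 for Rel, -0.76 for Rela and -0.17 for Relb (limma adjusted p 0.0824, 0.101 and 0.57), against the IRAK2 knockout Rel was -0.97 (0.166), and Rela of IRAK2 knockout minus wild type was 0.0019, as with 11 arrays. With 11 arrays Rela against the IRAK2 knockout was -0.48 (0.0314). With only the compared genotypes Rela was -0.52 (0.0768) and Relb -0.36 (0.103) against wild type. With no floor Relb was -0.36 (0.0503), and with the trended robust prior -0.36 (0.0628), with Rela against the IRAK2 knockout -0.45 (0.0485). With centring Rela against the IRAK2 knockout was -0.52 (0.0365) and Nfkb2 from 2 to 8 h -0.82 (0.0279). With the actin covariate, against wild type, Rel was -1.11, Rela -0.050 and Relb -0.18, and Rel against the IRAK2 knockout -0.91 (0.123). Subunits at least 2-fold above 0 h in the double knockout at 4 h were 1 with centring and 1 with the substitute baseline. The second Nfkb2 probeset opposed the main one in the double knockout against its own 0 h (-0.98 at 2 h, -0.56 at 4 h) and in its slope (0.62).

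Leaving out arrays or times gave -0.77 to -0.35 for Rela and -0.44 to -0.27 for Relb in double knockout minus wild type, -0.68 to -0.29 for Rela against the IRAK2 knockout, -0.56 to 0.013 for Rel and -0.21 to 0.021 for Rela in IRAK2 knockout minus wild type, -1.15 to -0.22 for Nfkb2 from 2 to 8 h and 0.61 to 1.07 for Rel at 8 h. Without a whole time, Rela against wild type was not called without the 2 h or 4 h arrays, and Relb without any 1 time. Genes called over all genes numbered 83 for IRAK2 knockout minus wild type, 44 without _x_at and _s_at probesets, 143 with 11 arrays, 6 with 12, 553 with only the compared genotypes and 6 to 177 when arrays or times were left out. They numbered 4458 for double knockout minus wild type (1161 with 12 arrays, 934 with the actin covariate, 2111 without the 4 h arrays) and 4214 against the IRAK2 knockout (1005, 1424 and 1572, and 2242 without the IRAK2-knockout 4 h array).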

Other observations

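The levels of the subunits were correlated with each other over the 11 arrays other than the double-knockout 0 h array, as a description of arrays that share genotypes and times. The Pearson r was 0.912 for Rela with Relb, 0.882 for Rel with Rela, 0.867 for Nfkb2 with Rela, 0.858 for Nfkb2 with Rel, 0.800 for Nfkb2 with Relb and 0.777 for Rel with Relb. The wild-type arrays at 4 and 8 h gave the same Nfkb2 level to 2 decimals, 8.89.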
